A study of Homo sapiens with 6 samples.

Results

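Keratins are the intermediate filament proteins of epithelia. Type I keratins are acidic, type II keratins are neutral to basic, and a filament is built from pairs of one of each. In the prostate, basal cells are known for KRT5 and KRT14, luminal secretory cells for KRT8 and KRT18, and KRT19 marks cells of intermediate and luminal character, so that keratins are the usual labels of epithelial state in this gland. The genes described here are those whose symbol is KRT followed by a number and at most one letter from A to C, which leaves out keratin-associated proteins and pseudogenes. Of 14884 named genes on the arrays, 47 met this rule, out of 55 keratin symbols of this form in RefSeq. KRT6A, KRT6B, KRT17, KRT34, KRT81, KRT82, KRT86 and KRT222 had no named transcript cluster and were not analysed here. The rule uses symbols only, but KRT19 and KRT15 were known from earlier results on these arrays.

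RNA came from RWPE-1, an immortalised line of benign human prostate epithelium grown in serum-free keratinocyte medium. RWPE1-CTRL cells carried the lentiviral vector CD511B-1 with a scrambled control. RWPE1-183FC cells carried the same vector with the full genomic miR-183 family cluster, which encodes miR-183, miR-96 and miR-182. Both were polyclonal populations sorted for the GFP of the vector, each with 3 biological replicates and 1 array per replicate, and untransduced cells were not analysed here. The comparison asks how keratin transcripts differ when the whole cluster is overexpressed.

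The mature 5p miRs of the introduced cluster are printed from RefSeq (GRCh38.p14, chromosome 7, minus strand), because the sequence added to RWPE1-183FC cells encodes them. Whether they account for differences between the groups was not tested. Capitals mark the seed, bases 2 to 8, through which a miR pairs with its targets. They lie at chr7:129774967-129774988 (miR-183), chr7:129774739-129774761 (miR-96) and chr7:129770447-129770470 (miR-182).
hsa-miR-183-5p: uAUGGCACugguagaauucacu
hsa-miR-96-5p: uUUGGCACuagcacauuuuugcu
hsa-miR-182-5p: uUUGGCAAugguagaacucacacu
The 3 seeds resemble each other and no pair of them is identical. On the arrays, the MIR96 feature lay at log2 values of 1.92 to 2.67 in RWPE1-CTRL and 5.19 to 5.93 in RWPE1-183FC, and the MIR183 feature at 2.27 to 3.03 and 4.05 to 4.55. The MIR182 feature overlapped between the groups (2.67 to 3.24 and 3.11 to 3.44). It lay below the median over all transcript clusters on every array. Whether these features follow the mature miRs was not tested, so the overlap does not show that mature miR-182 was unchanged. By RT-qPCR, the paper reports higher levels of every mature miR of the cluster in the cells that carried it than in control cells.

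All values below are log2 values after RMA, the array normalization used by the authors. A difference of 1 is a doubling. The median over all transcript clusters was 3.82 to 3.86 per array, the 90th percentile was 7.31 to 7.36, and the median over named genes was 5 to 5.09. Since probes differ in how brightly they hybridise, these serve as landmarks of bright and dim, and levels of different keratins are not ranked against each other. Correlations between arrays over named genes were 0.974 to 0.988, and the small number of arrays limits the precision. The labelled cell type was compared with its markers. KRT5 and KRT14 were bright on all 6 arrays, whereas the luminal secretory products KLK3 (3.63 to 4.01) and KLK2 (3.95 to 4.48) lay near the array median. Other measured genes of the basal and luminal lists did not divide in this way. Of the luminal list, KRT8 was at 5.31 to 6.22. KRT18 was at 10.46 to 10.58 in its brighter transcript cluster and at 7.22 to 7.52 in its dimmer one. Of the basal list, DST was at 7.32 to 7.67, NGFR at 5.26 to 5.65 and KRT15 at 4.21 to 5.59. TP63 and the basal integrins were not analysed here. Of markers of other cells, the fibroblast genes DCN and LUM were at 1.61 to 2.87 the endothelial genes PECAM1 and VWF at 2.65 to 4.05, and the monocyte gene CD14 at 3.34 to 3.98. CD68, a lysosomal gene known from macrophages and not particular to them, was at 9.01 to 9.87. Of the genes in these marker lists, KRT15 alone passed the test between the groups. KRT19 was in none of the lists and is described with the keratins. In such bulk RNA, fewer cells of a kind and less RNA per cell cannot be told apart.

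In RWPE1-CTRL, the bright keratins belonged to the basal and simple groups. KRT5, KRT14 and KRT18 exceeded the 90th percentile on all 6 arrays, and KRT7 did so on 5 of 6. For KRT18 this refers to the brighter of its 2 transcript clusters, whose neighbours lie on another chromosome than the gene, so that it may not measure KRT18 itself. The dimmer cluster exceeded the 90th percentile on 3 of 6 arrays. KRT16, KRT19 and KRT8 lay between the named-gene median and the 90th percentile on all 6 arrays. Of the 47 keratins, 16 exceeded the array median on all 6 arrays and 20 exceeded it on none. None of the 12 suprabasal, 8 inner root sheath or 13 hair keratins exceeded the named-gene median on all 6 arrays.

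**Figure D1:**
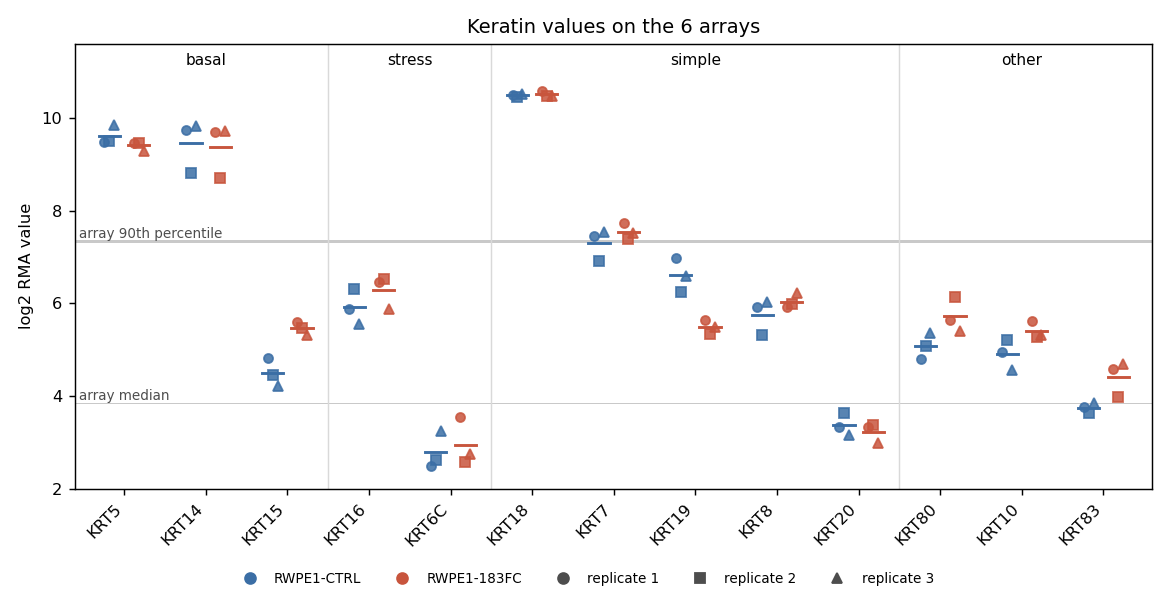
Log2 RMA values (vertical axis) of the basal, stress and simple keratins and of 3 others, KRT80, KRT10 and KRT83, on each of the 3 RWPE1-CTRL and 3 RWPE1-183FC arrays, with horizontal bars at the group means and grey bands at the range of array medians and of array 90th percentiles. KRT19 was lower and KRT15 higher on all 3 RWPE1-183FC arrays, while the KRT14 values of both groups fell apart by replicate number, with replicate 2 at 8.82 and 8.70.

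Between the groups, 2 keratins changed, and they changed in opposite directions. KRT19 fell and KRT15 rose in RWPE1-183FC. Genes were called at a false discovery rate (FDR) under 0.2 and a change over 1.5-fold in either direction, with limma, after removing genes of low median or low variance as the study's methods describe. Among the 9583 genes that passed this filter, 90 were called (0.939%), 42 lower (0.438%) and 48 higher (0.501%). Of the 47 keratins 28 passed the filter, so that 1 of 28 was called in each direction, and 19 could not be called. In simulated data this filtered test made more false calls than its FDR allows in every set drawn. Without the filter the share of false calls was near the FDR, but the way the data were drawn built this in. In those data the adjusted p-values with the filter were thus too small, and those without it are given beside the calls. How either test behaves on these arrays was not tested. With counts of 1 in each direction, no statement on keratins as a family was drawn from these shares.

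KRT19 is the smallest type I keratin and lacks most of the tail domain that other keratins carry. It was at 6.97, 6.25 and 6.59 in RWPE1-CTRL replicates 1 to 3 and at 5.65, 5.34 and 5.50 in RWPE1-183FC replicates 1 to 3. Every RWPE1-183FC array was below every RWPE1-CTRL array, and all 6 remained above the named-gene median. The means were 6.61 ± 0.36 (SD, n = 3) and 5.50 ± 0.15 (SD, n = 3). KRT19 was thus 2.16-fold lower in RWPE1-183FC, at -1.11 on the log2 scale with a standard error of 0.22, and limma gave an adjusted p of 0.00090. By size of change it held rank 8 among the 42 genes called lower.

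KRT15 is a type I keratin of basal cells, known also as a marker of stem-like cells in hair follicles. It was at 4.83, 4.45 and 4.21 in RWPE1-CTRL replicates 1 to 3 and at 5.59, 5.48 and 5.32 in RWPE1-183FC replicates 1 to 3. The groups did not overlap, and KRT15 moved from below the named-gene median on all 3 RWPE1-CTRL arrays to above it on all 3 RWPE1-183FC arrays. The means were 4.5 ± 0.31 (SD, n = 3) and 5.46 ± 0.13 (SD, n = 3). KRT15 was thus 1.95-fold higher, at 0.96 on the log2 scale with the same standard error, and limma gave an adjusted p of 0.00633. By size of change it held rank 15 among the 48 genes called higher.

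Both calls were also made without the filter on median and variance, closer to the threshold. Over all 14884 genes the limma adjusted p was 0.137 for KRT19 and 0.180 for KRT15, with 18 genes called in each direction (0.121% each), and the 95% intervals of the log2 fold change were -1.54 to -0.67 and 0.56 to 1.37. Over all transcript clusters, named or not, with the filter, KRT15 was not called (adjusted p = 0.215 from limma) and KRT19 was (0.131).

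KRT15 and KRT19 are neighbours in the RefSeq gene order of the type I cluster on chromosome 17, with no protein-coding gene between them. KRT9, the next coding gene after KRT19, was at a log2 fold change of -0.02, and KRT14 beyond it at -0.09. On the other side of KRT15, KRT13, a keratin of non-cornified stratified epithelium, was at 0.42 (95% interval -0.03 to 0.87) with overlapping groups. Thus of the 25 measured keratins on chromosome 17 the only ones called were this adjacent pair, and none was called among the 22 on chromosome 12. This holds for the reported test, with the filter and without a block on replicate number. KRT80 and KRT83 on chromosome 12 were called with the block and with array weights. KRT83 was also called without RWPE1-183FC replicate 2, and KRT75 and KRT83 with both replicate 2 arrays left out. Over all transcript clusters KRT15 was not called, so that the pair was lost.

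**Figure D2:**
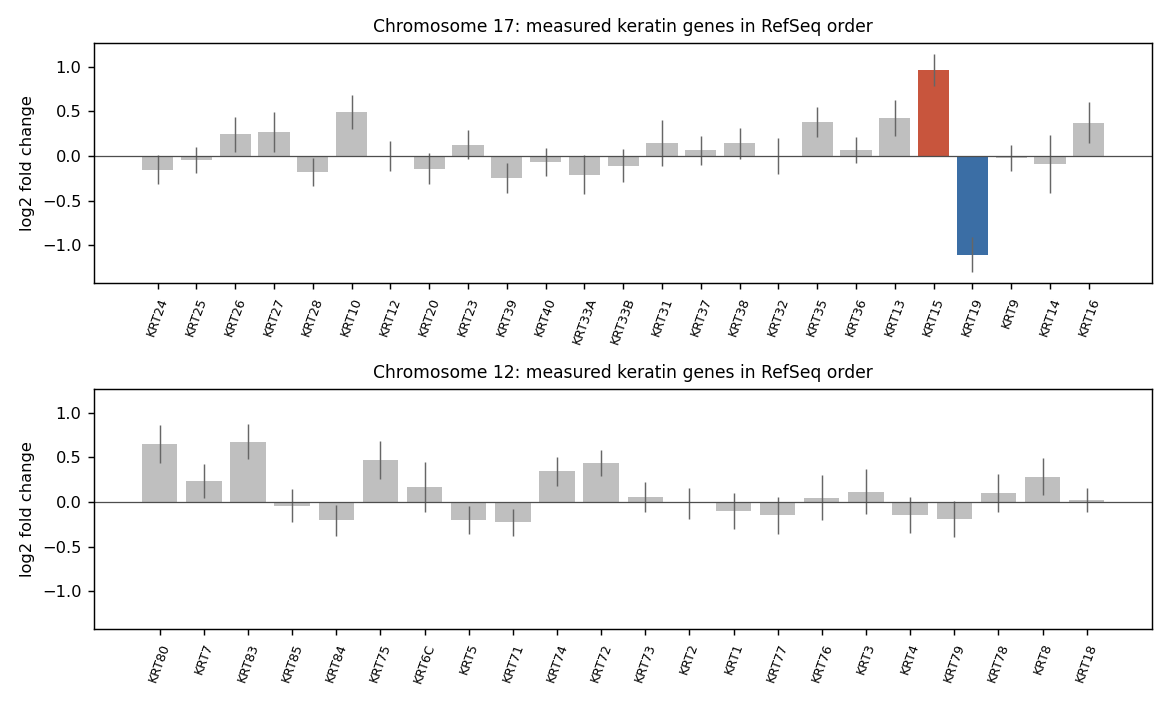
Log2 fold change (RWPE1-183FC over RWPE1-CTRL, vertical axis, bars from 0 with standard errors of the limma fit without filter) of the measured keratins in their RefSeq order along chromosomes 17 and 12, at equal spacing and not to genomic scale. Coloured bars are the genes called in the reported test, which has the filter and no block on replicate number. They are KRT15 (0.96) and KRT19 (-1.11), which stand side by side. Grey bars are genes that were not called in it.

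As a ratio within each array, in which a constant factor per array cancels, KRT15 relative to KRT19 gave log2 differences of -2.15, -1.80 and -2.38 in RWPE1-CTRL and of -0.06, 0.13 and -0.18 in RWPE1-183FC. The shift between the groups was 2.07, a 4.21-fold change of the ratio. This pair was chosen after its values had been seen, and no test was made of it.

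The other basal keratins did not pass the test. KRT5, the type II keratin of basal cells, was at 9.48, 9.5 and 9.86 in RWPE1-CTRL and at 9.47, 9.46 and 9.30 in RWPE1-183FC. The groups were separated only by 9.48 against 9.47. The log2 fold change of KRT5 was -0.20 (95% interval -0.55 to 0.15, limma adjusted p = 0.999).

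KRT14, the type I partner of KRT5, was at 9.74, 8.82 and 9.84 in RWPE1-CTRL and at 9.69, 8.70 and 9.73 in RWPE1-183FC. Here the arrays differed by replicate number and not by group. Replicate 2 of both groups averaged 8.76 against 9.75 in the other 4 arrays, a difference of -0.99, the largest of this kind among the 47 keratins. The log2 fold change between groups was -0.09, and its interval was wide for this reason (-0.82 to 0.64). KRT7 was also lower in both replicate 2 arrays, by 0.42 on average, and 2 further keratins, KRT9 and KRT18, by 0.16 and 0.06. In all, 4 of 47 keratins were lower and 2 higher in both replicate 2 arrays than in any other array (8.51% and 4.26%), against 13.1% and 14.4% of all named genes. The cause of this difference between replicates was not tested.

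Of the simple keratins, KRT8 and KRT18, which pair in luminal cells, did not pass the test. KRT8 was at 5.93, 5.31 and 6.04 in RWPE1-CTRL and at 5.92, 5.98 and 6.22 in RWPE1-183FC, with overlapping groups and a log2 fold change of 0.28 (95% interval -0.18 to 0.74, limma adjusted p = 0.999). KRT18, from its brighter cluster, was at 10.50, 10.46 and 10.52 in RWPE1-CTRL and at 10.58, 10.47 and 10.48 in RWPE1-183FC. The change was 0.02 on the log2 scale (95% interval -0.28 to 0.32), and it was removed by the variance filter. The KRT18 symbol was carried by 2 transcript clusters, and the brighter was used. By their order on the array, the 6 named neighbours of the brighter cluster lie on chromosome 3, while KRT18 and the neighbours of the dimmer cluster lie on chromosome 12. The dimmer cluster was at 7.27, 7.22 and 7.44 in RWPE1-CTRL and at 7.52, 7.49 and 7.30 in RWPE1-183FC, a log2 fold change of 0.13.

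KRT7, a type II keratin of simple and glandular epithelium, was at 7.46, 6.91 and 7.55 in RWPE1-CTRL and at 7.74, 7.38 and 7.51 in RWPE1-183FC. The groups overlapped, with a log2 fold change of 0.23 (95% interval -0.20 to 0.67). KRT20, a keratin of intestinal and urothelial epithelium, stayed below the array median on all 6 arrays (2.99 to 3.63). Thus of the 5 measured simple keratins 3 passed the filter, and of these KRT19 alone was called. KRT18 and KRT20 did not pass the filter and could not be called. The means of KRT7, KRT8 and KRT18 were higher in RWPE1-183FC.

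Of the stress keratins, which are induced in wounded and hyperproliferative epidermis, only KRT16 and KRT6C were measured. KRT16 was at 5.88, 6.32 and 5.56 in RWPE1-CTRL and at 6.46, 6.53 and 5.89 in RWPE1-183FC. Its groups overlapped (log2 fold change 0.37, 95% interval -0.14 to 0.89). KRT6C was dim on all 6 arrays (2.49 to 3.54). KRT6C is nearly identical to KRT6A and KRT6B, and KRT16 has close pseudogenes, so that neither can be attributed to a single transcript with certainty.

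**Figure D3:**
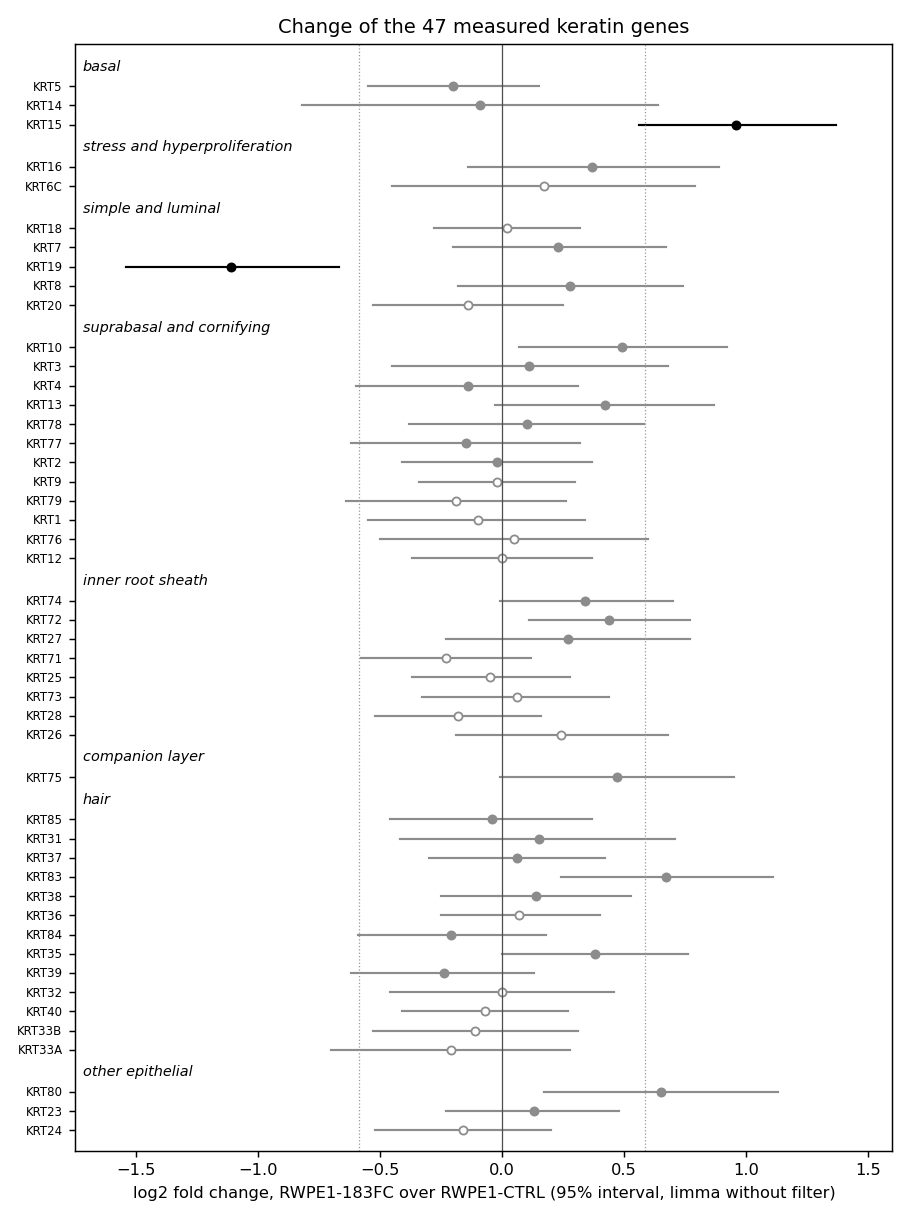
Log2 fold change of the 47 measured keratins (horizontal axis, RWPE1-183FC over RWPE1-CTRL) with 95% intervals from limma without the filter, grouped by keratin class, with dotted lines at 1.5-fold. Black marks the called KRT15 and KRT19, grey the genes not called, and open circles the 19 genes that did not pass the filter.

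None of the remaining keratins passed the test. KRT80, a type II keratin of epithelia that is linked to late differentiation, was at 4.80, 5.09 and 5.36 in RWPE1-CTRL and at 5.65, 6.13 and 5.41 in RWPE1-183FC. The groups did not overlap, with a log2 fold change of 0.65 (95% interval 0.17 to 1.13, limma adjusted p = 0.355). KRT83, a hair cortex keratin whose sequence is close to those of KRT81 and KRT86, was at 3.76, 3.63 and 3.85 in RWPE1-CTRL and at 4.59, 3.98 and 4.69 in RWPE1-183FC. The groups did not overlap (log2 fold change 0.67, limma adjusted p = 0.263). The RWPE1-CTRL values lay close to the array median, and below it except for 3.85.

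Fitting replicate number as a block changed the call of these 2 genes, although the labels do not tie like-numbered arrays to a shared day or batch. With this block, KRT80 (limma adjusted p = 0.122) and KRT83 (0.0556) were called higher. This made 3 keratins called higher and 1 lower, against 162 calls among all genes (1.69%). KRT15 and KRT19 were called with the block too. With the block and no filter, KRT83 was called (limma adjusted p = 0.193) and KRT80 was not (0.382). Without RWPE1-183FC replicate 2, KRT83 was called at a log2 fold change of 0.89 (limma adjusted p = 0.0423).

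KRT10, the type I keratin of suprabasal epidermis, was at 4.96, 5.21 and 4.56 in RWPE1-CTRL and at 5.61, 5.28 and 5.31 in RWPE1-183FC, with no overlap and a log2 fold change of 0.49 (95% interval 0.07 to 0.92, limma adjusted p = 0.843). KRT1, its usual type II partner, was below the array median on all 6 arrays (2.67 to 3.39). Among the 12 suprabasal keratins the log2 fold changes ran from -0.19 to 0.49, with 7 lower and 5 higher means. KRT2, KRT9, KRT12, KRT76 and KRT79 were likewise below the array median on all 6 arrays, whereas KRT3 exceeded it on all 6 (3.93 to 4.88). KRT4 (3.62 to 4.29), KRT13 (3.37 to 4.44), KRT77 (3.30 to 4.07) and KRT78 (3.48 to 4.38) lay around it.

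The 8 inner root sheath keratins, which are known from the sheath around the growing hair, were at 2.45 to 4.46. KRT72 and KRT74 did not overlap between the groups, with log2 fold changes of 0.44 and 0.34 (limma adjusted p = 0.999 for both). The 13 measured hair keratins were at 2.57 to 5.33, with 7 lower and 6 higher means, a median log2 fold change of 0.00 and no overlap only for KRT83. Of these, KRT85, KRT31 and KRT37 exceeded the array median on all 6 arrays, with log2 fold changes of -0.04, 0.15 and 0.06. KRT75, a keratin of the companion layer of the hair follicle, was at 0.47 (95% interval -0.01 to 0.95) and was called only when both replicate 2 arrays were left out. KRT23, which also exceeded the array median throughout, was at 0.13.

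Over the 47 keratins, 22 means were lower and 25 higher in RWPE1-183FC, and the median log2 fold change was 0.05, against 0.01 over all named genes. Groups did not overlap for 2 lower keratins, KRT19 and KRT5 (4.26%), and for 6 higher ones, KRT15, KRT80, KRT83, KRT10, KRT72 and KRT74 (12.8%). Among all named genes, 4.57% were lower and 5.16% higher with no overlap. At an unadjusted limma p under 0.05 without the filter, 6 of 47 keratins differed, KRT19 lower and KRT15, KRT80, KRT83, KRT10 and KRT72 higher, against 2.36% of all named genes lower and 2.43% higher. The 45 keratins that were not called had log2 fold changes of -0.24 to 0.67, and for 43 of them the 95% interval lay within a change of 1 in either direction.

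Type II and type I keratins were set against each other within each array for 8 partner pairs that were both measured. KRT5 relative to KRT14 differed by -0.11 between the groups, less than its spread (SD 0.48 and 0.63). KRT8 relative to KRT18 differed by 0.26, with overlapping groups (SD 0.36 and 0.20). This pair used the brighter KRT18 cluster, which may not measure KRT18 itself, and the dimmer cluster was not tested in it. For KRT5 with KRT14 the two-sided exact permutation test gave p = 0.8, and for KRT8 with KRT18 it gave p = 0.5.

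Of the 8 pairs, 4 did not overlap between the groups, and 3 of these contained KRT19 or KRT15. KRT7 relative to KRT19 was at 0.49, 0.67 and 0.96 in RWPE1-CTRL and at 2.09, 2.03 and 2.02 in RWPE1-183FC, a shift of 1.34. KRT8 relative to KRT19 shifted by 1.39 and KRT5 relative to KRT15 by -1.17. KRT1 relative to KRT10 shifted by -0.60. For each of these pairs the two-sided exact permutation test gave p = 0.1, the smallest that 3 arrays against 3 allow, and p = 0.2 after Benjamini-Hochberg adjustment over the 8 pairs. The 3 pairs with KRT19 or KRT15 share these genes with the calls above and add no independent evidence.

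**Figure D4:**
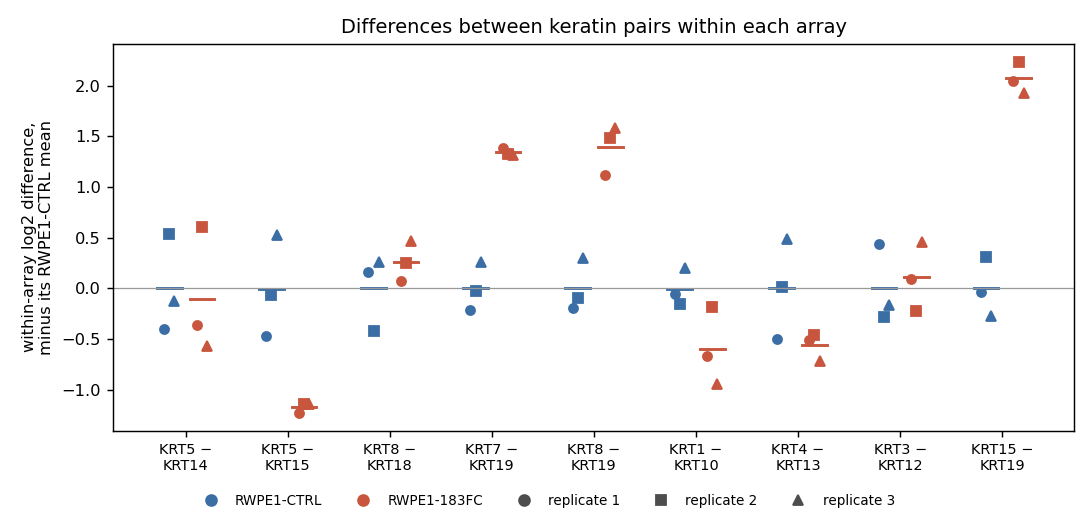
Log2 difference between the 2 keratins of a pair within each array (vertical axis), shown minus its RWPE1-CTRL mean so that only shifts are seen, for the 8 partner pairs and, at the right, KRT15 relative to KRT19. Blue is RWPE1-CTRL, red is RWPE1-183FC, and bars are means of 3 arrays. KRT18 is from its brighter cluster, which may not measure KRT18 itself. The RWPE1-183FC arrays stand apart in pairs with KRT19 or KRT15 and for KRT1 relative to KRT10, and overlap with RWPE1-CTRL in the others.

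Genes related to keratins or acting with them were examined in 4 lists. Of 8 measured intermediate filament genes outside the keratin family, 7 passed the filter and 1 was called, against 0.939% of all genes that passed it. It was DES, which encodes desmin, the intermediate filament protein of muscle, at 4.85, 4.03 and 4.56 in RWPE1-CTRL and at 5.64, 5.50 and 5.50 in RWPE1-183FC (log2 fold change 1.06, limma adjusted p = 0.00172, and 0.193 without the filter). VIM, the mesenchymal filament gene that cultured epithelial cells also express, was chosen after its values were seen. It was at 8.93 to 9.14 and 8.61 to 8.78, without overlap and at a log2 fold change of -0.38 (limma adjusted p = 0.999).

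None of the 10 measured cytolinkers and anchors, which fasten keratin to desmosomes and hemidesmosomes, was called (6 passed the filter, median log2 fold change 0.12). The largest were EPPK1, encoding epiplakin, at 0.40 with overlapping groups, and EVPL, encoding envoplakin, at 0.23 (5.58 to 5.75 and 5.79 to 6.03, no overlap). None of the 13 measured transcription factors linked to keratin genes was called, all of which had passed the filter (median 0.20). The largest were SOX2 at 0.54 (3.05 to 3.44 and 3.53 to 3.94, dim throughout in RWPE1-CTRL) and TFAP2C at 0.35. None of 6 measured chaperones and binding partners was called (3 passed the filter, median 0.12), and the largest were HSPB1, a small heat shock protein, at 0.19 and SFN, which encodes the epithelial 14-3-3 sigma, at 0.17.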

How the data were processed

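The authors deposited log2 values after RMA, from arrays of 3 RWPE1-CTRL and 3 RWPE1-183FC replicates. The R package oligo is named in the methods, and Partek with RMA in the processing notes of the submitters. The methods name the Human Gene 1.0 ST array, while the values lie on clusters of the 2.0 ST design. The genome build was not given in the sources used here. Of 53617 clusters 16098 carried a symbol, and the brightest cluster of each symbol was kept. For the keratins, all 47 symbols equalled RefSeq names by gene identifier.

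Genes with a median or variance under the 20th percentile were removed, and the group difference was fitted in limma 3.58.1 (lmFit, eBayes; R 4.3.3) with Benjamini-Hochberg adjustment over all genes tested. The intervals printed come from the fit without filter. The limma prior degrees of freedom were 175.8 with the filter and 5.80 without. In simulated data the test without filter recovered genes changed by 3-fold or more, with a share of false calls near the FDR. Those data were normal values with variances drawn from the limma prior of that fit, without replicate effects. The near match was thus built in and does not show how this test behaves on the arrays. With the filter, fewer genes of that size of change were recovered, and the share of false calls exceeded the FDR in every set. Recovery of smaller changes, of the size seen for KRT19 and KRT15, was not measured. Over 14884 genes, deviations from the mean of each group correlated at 0.101, 0.511 and 0.29 between like-numbered arrays (replicates 1, 2 and 3). RWPE1-CTRL replicate 3 with RWPE1-183FC replicate 1 gave 0.214, above the like-numbered value of replicate 1. Since each like-numbered value exceeded 0.1, replicate number was fitted as a block in an alternative, printed where it changed a call. The reported test has no block. This rests on the data, since the labels name no shared day or batch. P-values from limma rest on the spread between these arrays, which limma pools over genes. With the filter the standard error hardly depended on the spread of the single gene, at 0.22 for KRT5 and 0.23 for KRT14. Without the filter these were 0.16 and 0.33.

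KRT19, KRT15 and all measured basal, stress, simple and suprabasal keratins were to be named, others where called, not overlapping or above the array median throughout. In each linked list, called genes or the 2 with the largest change were named. Members and lists were chosen with earlier results of these data known. Alternatives covered filter, thresholds, block, array weights, normalization, clusters per gene, variance trend and arrays left out. Figures used matplotlib 3.10.9, and exact tests scipy 1.17.1.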

Additional observations from a re-analysis of the deposited data

How the results depend on the processing

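KRT19 was called lower under all 19 alternatives fixed for it, and KRT15 was called higher under 18, the exception being the test over all clusters, which called 0 keratins higher. Some of these could not fail. Dropping the fold threshold only loosens the rule, and the adjusted p-values already reported settle the calls at an FDR under 0.05. Most of the others keep the filter. The keratin count higher was 3 with the replicate block, 2 with the block and no filter, 3 with array weights, 3 with both arrays numbered 2 left out, and 1 to 2 when single arrays were omitted (2 in the absence of RWPE1-183FC replicate 2, which added KRT83). Calls over all genes, 90 as reported, numbered 162 with the replicate block, 192 with array weights, 51 when the FDR was set under 0.05, 37 when genes were filtered by median alone and 36 without any filter. Leaving out single arrays gave 43 to 152, with the lowest lacking replicate 1 and the highest replicate 2 of RWPE1-183FC. RWPE1-183FC replicate 3 and RWPE1-CTRL replicate 1 lowered it to 57 and 58. With array weights, 2 linked genes were called in place of 1, the second being SOX2. The causes were not tested. No called keratin changed direction. With no filter and 1 array left out, chosen after seeing the data, KRT19 was called only without RWPE1-CTRL replicate 2 (adjusted p 0.0819 from limma, and 0.319 to 0.564 otherwise) and KRT15 in none (0.268 to 0.819), at log2 fold changes of -1.29 to -0.93 and 0.82 to 1.13. The calls with the filter rest on a test whose false calls exceeded its FDR in simulated data. The number of arrays and the dim level of most keratins limit what could be detected.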

Other observations

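The keratin rule leaves out further KRT symbols. Of 85 measured keratin-associated protein genes, whose products form the matrix around hair keratins, 37 passed the filter and 1 was called, against 0.939% of all genes that passed it. Groups did not overlap for 12 of the 85, against 4.57% of all named genes lower and 5.16% higher. It was KRTAP6-1, at 4.20, 4.32 and 4.11 in RWPE1-CTRL and at 3.55, 3.36 and 2.94 in RWPE1-183FC (log2 fold change -0.92, limma adjusted p = 0.0105, and 0.193 without the filter). All 3 RWPE1-183FC values lay below the array median. With replicate number as a block, KRTAP10-5 (log2 fold change -0.59, limma adjusted p = 0.0985) and KRTAP13-1 (-0.59, 0.123) were called lower too. KRTAP15-1, chosen after its values were seen, was at 2.35, 2.03 and 2.95 in RWPE1-CTRL and at 3.28, 3.29 and 4.08 in RWPE1-183FC, without overlap (log2 fold change 1.11). It did not pass the filter, and its limma adjusted p without it was 0.48. None of 7 measured keratin pseudogenes was called without the block. With it, KRT16P3 was called lower (log2 fold change -0.65, limma adjusted p = 0.0715), at 5.44, 4.57 and 4.78 in RWPE1-CTRL and 4.65, 4.24 and 3.95 in RWPE1-183FC. KRT16P2 was above the 90th percentile on all 6 arrays, at 8.21, 7.92 and 8.09 in RWPE1-CTRL and at 8.02, 7.73 and 8 in RWPE1-183FC. KRT19P2, whose name derives from KRT19, was at 2.49 to 3.47 in RWPE1-CTRL and 3.24 to 3.58 in RWPE1-183FC, with overlapping groups and a log2 fold change of 0.30.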
